A study of Homo sapiens with 2 samples.

Results

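The genes described here encode the mitochondrial ribosomal proteins, taken as every protein-coding gene of the deposited tables whose symbol starts with MRPL or MRPS followed by a digit. The rule found 77 of the 40392 genes, 49 of the large subunit (MRPL) and 28 of the small subunit (MRPS). They were measured in KYSE30, an established line from an esophageal squamous cell carcinoma, by RNA sequencing of rRNA-depleted total RNA. The RHCG library came from stable transfectants carrying an expression vector for human RHCG, an ammonia and ammonium transporter, and the mock library from stable transfectants carrying the pIRES2-EGFP vector. The labels do not say whether the vectors share a backbone, or whether each culture was 1 clone or a pool. There was 1 library per group, so no difference has a replicate check, and each one compares these 2 libraries. In bulk RNA, fewer cells with a transcript and less transcript per cell cannot be told apart.

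The mitochondrial ribosome translates the few proteins that mitochondrial DNA encodes, all of them subunits of the respiratory chain and ATP synthase. Its rRNAs come from mitochondrial DNA, while every one of its proteins is encoded in the nucleus, made in the cytosol and imported. Many of these proteins descend from those of bacterial ribosomes, and others were added during the evolution of mitochondria. The small subunit reads the mRNA, and the large subunit forms the peptide bond and holds the exit tunnel.

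From the scaling of the tables, depth was about 22065300 reads in the RHCG library and 18960900 reads in the mock library. RHCG itself was at 413 RPKM (reads per kilobase of transcript, scaled to depth) in the RHCG library and was listed at 0 in the mock library. Of 12 squamous epithelial markers, 10 were listed above 0, with KRT5 and PKP1 at 0 in both libraries, and the markers summed to 601 RPKM in the RHCG library and 1016 RPKM in the mock library. All 4 endothelial markers were at 0 in both libraries, as were 4 of 6 fibroblast markers, whose sum was 1.44 RPKM in the RHCG library and 2.45 RPKM in the mock library. Of 5 leukocyte markers 4 were at 0 in both libraries, and CD68 had 8.89 RPKM in the RHCG library and 15.43 RPKM in the mock library.

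The promoters of the members with the highest and the lowest ratio of RHCG over mock in each subunit, among those for which sequence was at hand, are shown first. Sequence came from the RefSeq promoter table of GRCh38.p14, which matched 69 of the 77 members. The others were MRPL2, MRPL10, MRPL13, MRPL15, MRPL21, MRPL23, MRPL35 and MRPS28. Each of the 4 sequences gives the 250 bases before the start site, 5′ to 3′ on the strand of the gene, with motif matches in capitals. MRPL33 lies at chr2:27771469-27771718 on the plus strand and MRPL14 at chr6:44127309-44127558 on the minus strand. MRPS33 lies at chr7:141014953-141015202 on the minus strand and MRPS11 at chr15:88467458-88467707 on the plus strand. The capitals mark an ETS motif in MRPL33 and an NRF1 motif in MRPL14 and MRPS33, and MRPS11 held none of the motifs searched.
MRPL33: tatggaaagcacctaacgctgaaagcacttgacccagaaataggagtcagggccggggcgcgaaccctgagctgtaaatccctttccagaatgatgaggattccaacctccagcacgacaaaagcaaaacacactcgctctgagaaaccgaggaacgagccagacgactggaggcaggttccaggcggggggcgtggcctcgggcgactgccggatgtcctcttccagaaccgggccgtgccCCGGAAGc
MRPL14: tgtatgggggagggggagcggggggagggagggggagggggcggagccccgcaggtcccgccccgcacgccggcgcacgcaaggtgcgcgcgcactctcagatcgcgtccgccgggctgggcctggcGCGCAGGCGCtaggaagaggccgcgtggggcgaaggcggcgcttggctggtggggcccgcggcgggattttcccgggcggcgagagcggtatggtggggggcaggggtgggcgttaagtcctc
MRPS33: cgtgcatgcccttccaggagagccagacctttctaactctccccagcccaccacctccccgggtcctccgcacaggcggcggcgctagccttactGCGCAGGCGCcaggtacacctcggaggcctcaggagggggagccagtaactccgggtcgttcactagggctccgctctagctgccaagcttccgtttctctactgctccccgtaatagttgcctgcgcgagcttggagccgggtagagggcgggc
MRPS11: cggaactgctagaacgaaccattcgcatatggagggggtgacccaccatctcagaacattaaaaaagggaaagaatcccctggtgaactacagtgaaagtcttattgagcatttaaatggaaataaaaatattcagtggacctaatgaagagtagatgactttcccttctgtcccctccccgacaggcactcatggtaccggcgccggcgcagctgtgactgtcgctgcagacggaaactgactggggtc

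The motifs were those of factors known to act at promoters of nuclear genes for mitochondrial proteins, searched on both strands of the 300 bases around each start site, with the TATA box beside them. ETS family motifs (CCGGAAG, the site that NRF2, also called GABP, recognises) were in 29 of the 69 promoters (42.0%), against 14.5% of the 15316 protein-coding promoters in the table and 20.2% of the 9420 promoters of tested genes. YY1 motifs (AAGATGGC) were in 20 of 69 (28.99%), against 3.98% of all promoters and 5.66% of those of tested genes. The NRF1 motif, which is the 9 letters GCGCANGCG followed by a C, was in 8 of 69 (11.6%), against 8.74% of all promoters and 12.2% of those of tested genes. Without that final C, a shortening tried after the first counts were seen, it was in 13 of 69 (18.8%), against 11.2% of all promoters and 15.41% of those of tested genes. TATA boxes (TATAAA) were in 2 of 69 (2.90%), against 9.58% of all promoters and 5.59% of those of tested genes. ETS or YY1 motifs were in 41 of 69 promoters (59.4%), against 17.5% of all, and 8 promoters held both, with no match of one overlapping a match of the other. A match describes letters only, and 23 promoters held none of these motifs.

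Of the 21 YY1 matches, 15 began after the start site, at a median of base 16 of the transcript. The 4 windows below show this motif, in capitals, in members with higher values in the RHCG library or, for MRPL38, high levels in both libraries. Other members with the motif, not shown, had log2 ratios below 0, among them MRPL32 (−0.44), MRPL20 (−0.32) and MRPL22 (−0.25). The choice of windows therefore says nothing about the motif and the ratio. All are on the minus strand, at chr5:1799854-1799883 for MRPL36, chr15:88467362-88467391 for MRPL46, chr3:179604712-179604741 for MRPL47 and chr17:75904860-75904889 for MRPL38. In MRPL46 and MRPL38 the motif reads forward and lies after the start site, while in MRPL36 and MRPL47 its reverse complement lies before it.
MRPL36: ccccccccgccGCCATCTTccttcctggca
MRPL46: tgggagaacgaAAGATGGCggcgcccgtaa
MRPL47: ggcaggatgtgGCCATCTTaagtgagggca
MRPL38: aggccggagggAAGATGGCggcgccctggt

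Median ratios of members with and without a motif were as follows. The 29 tested members with an ETS motif had a median log2 ratio of −0.013, and the 38 without one a median of −0.025. The 20 with a YY1 motif had a median of 0.019, and the 47 without one a median of −0.032. The 7 with the NRF1 motif had a median of −0.061, and the 60 without it a median of −0.016. Without its final C, these were −0.13 for 12 members with the motif and −0.013 for 55 without it. The 2 members with a TATA box had a median of −0.24, and the 65 without one a median of −0.016. Ratios of members with the NRF1 motif lay far apart: 5 of the 7 (MRPL14, MRPL17, MRPL30, MRPL36 and MRPS33) were past 1.5-fold, 3 lower and 2 higher, against 3 of the 60 without it. Over all tested genes with a promoter in the table, 19.1% of the 1152 with the motif and 23.1% of those without it were past 1.5-fold. Without the final C, 5 of 12 members were past 1.5-fold. This count was made after the values were seen and was not tested.

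As a family, the mitochondrial ribosomal proteins had nearly the same RNA levels in both libraries. Ratios are log2 of RHCG over mock, after adding 1 RPKM to each value, for genes averaging 1 RPKM or more over both libraries. Of the 77 members 75 passed this filter, and MRPL9 and MRPL57 were listed at 0 in both libraries. The median log2 ratio of the 75 was −0.017, with 30 above 0 and 45 below, beside a median of −0.0054 over all 12857 genes tested. Members' levels summed to 3399 RPKM in the RHCG library and 3206 RPKM in the mock library, a ratio of 1.06.

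Past 2-fold, 1 member was higher in the RHCG library, MRPL33, and 1 was lower, MRPL23. Together they are 2.67% of the members tested, against 6.04% of all genes tested, where 2.74% were higher and 3.3% lower. Past 1.5-fold, 5 members were higher and 4 lower, which is 12% of the family, against 22.8% of all genes tested, where 11.3% were higher and 11.5% lower. The interquartile range of the ratios was 0.45 in the family, against 0.63 for all genes tested. It was 0.41 for genes of the respiratory chain and ATP synthase and 0.46 for cytosolic ribosomal proteins, so a narrow range was not particular to the family. It was 0.65 for the 8871 protein-coding genes in the members' range of mean level.

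**Figure D1:**
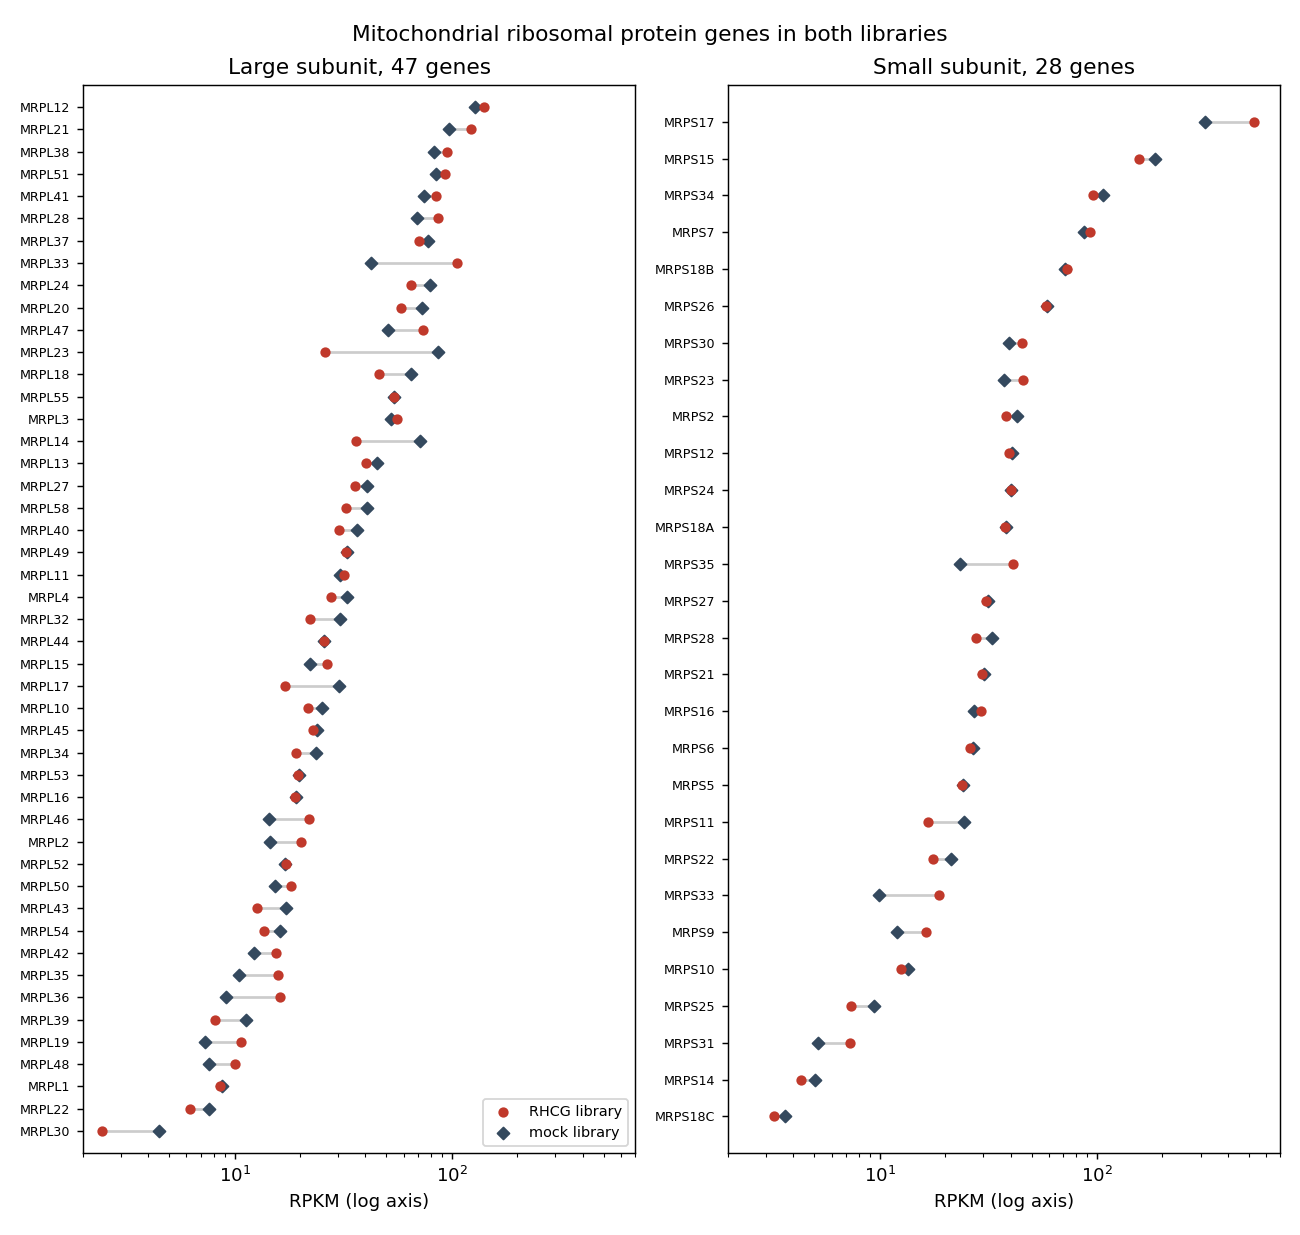
Level of each tested gene (RPKM, log axis) in the RHCG library (red circles) and the mock library (dark diamonds), joined by a grey line, with genes of the large subunit (47) and the small subunit (28) ordered by mean level. For most genes the symbols touch or lie close together, and the longest lines are those of MRPL33, higher in the RHCG library, and MRPL23, lower there.

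Levels covered a wide range within the family, from 2.45 to 528 RPKM in the RHCG library and from 3.64 to 314 RPKM in the mock library. The median member was at 27.8 RPKM in the RHCG library and 30.5 RPKM in the mock library. By approximate read numbers a member rested on 48 to 14925 reads in the RHCG library and 46 to 7628 reads in the mock library. The approximate 95% Clopper-Pearson intervals given in brackets below cover counting error only and had a median half-width of 0.16 on the log2 scale. They are for the ratio of depth-scaled reads without the added 1 RPKM, so a printed ratio need not lie at their centre. They left out 0 for 51 of the 75 members. The same count was not made over all genes tested, so it does not measure how many members changed.

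The medians of the large and small subunits lay close together. The 47 tested large subunit genes had a median log2 ratio of −0.016, with 20 above 0 and 27 below, and the 28 small subunit genes a median of −0.021, with 10 above and 18 below. The difference between the medians was 0.0057. MRPS30 and MRPS18A, which structures place in the large subunit in spite of their symbols, moved it to 0.015 when counted there. Large subunit ratios spread more, with an interquartile range of 0.53, against 0.27 in the small subunit.

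The summed level of the small subunit differed between the libraries mainly through MRPS17. Large subunit genes summed to 1836 RPKM in the RHCG library and 1843 RPKM in the mock library. Small subunit genes summed to 1563 RPKM in the RHCG library and 1363 RPKM in the mock library, but without MRPS17 to 1035 RPKM in the RHCG library and 1049 RPKM in the mock library.

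**Figure D2:**
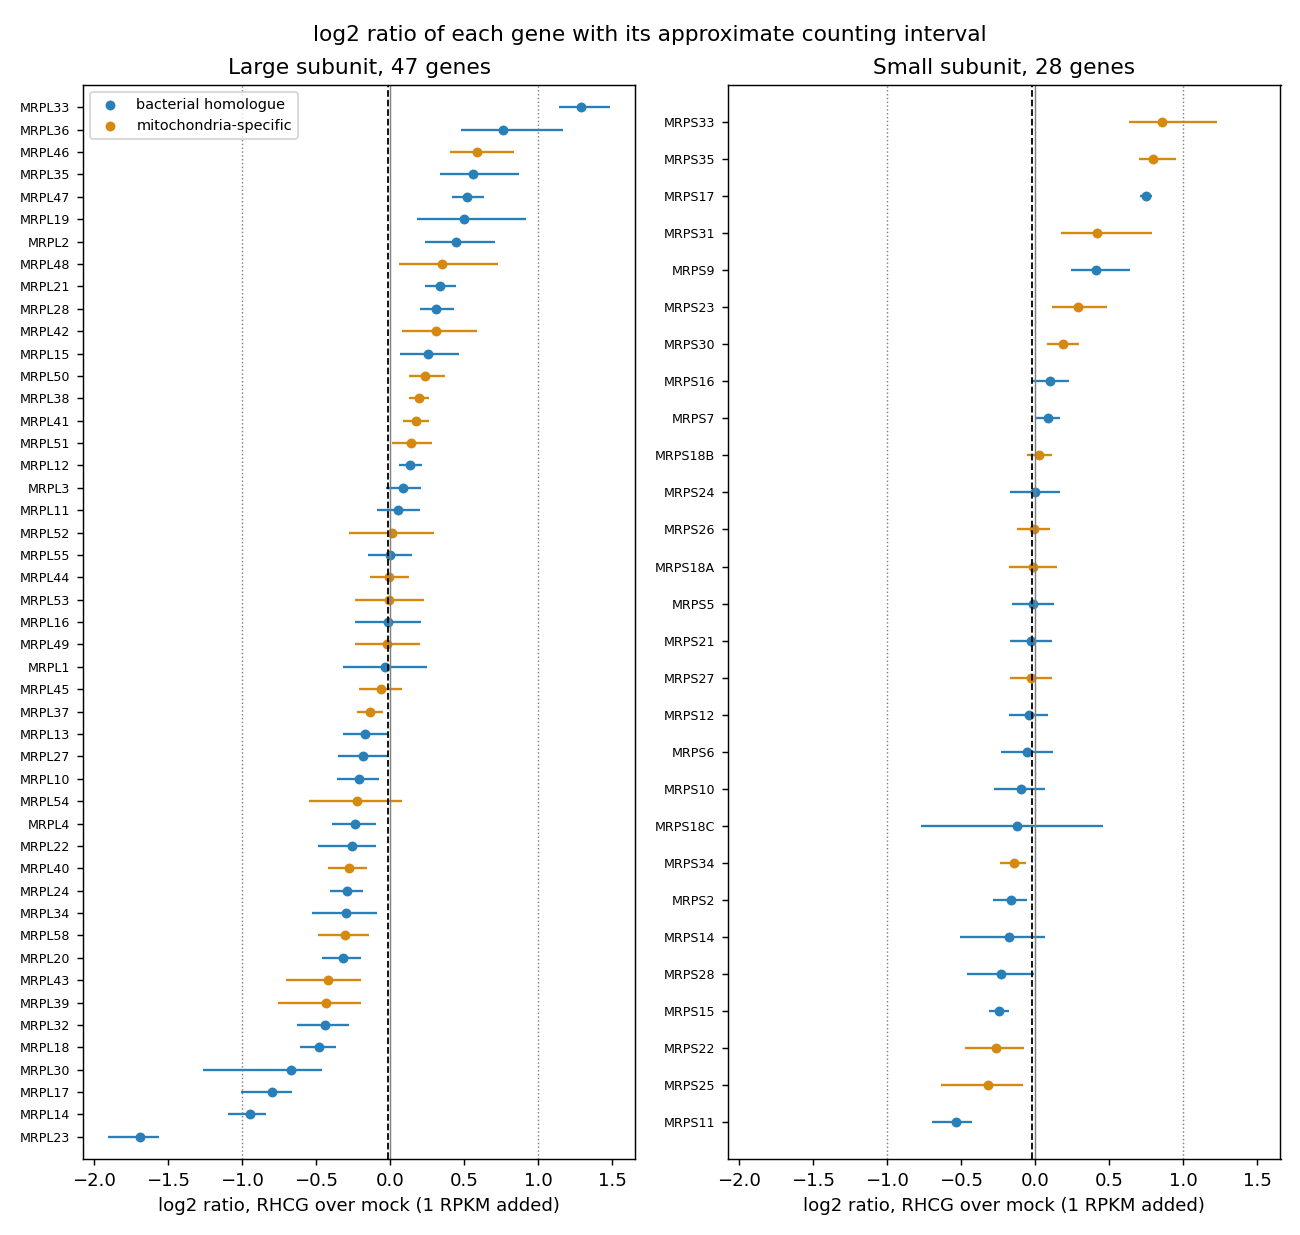
Log2 ratio of RHCG over mock for each of the 75 tested genes, ordered within the large and the small subunit and coloured by bacterial or mitochondria-specific origin, with approximate 95% counting intervals as bars, dotted lines at 2-fold and a dashed line at the median of each subunit. The large subunit runs from −1.69 (MRPL23) to 1.29 (MRPL33) and the small subunit from −0.54 (MRPS11) to 0.86 (MRPS33). The intervals were made without the added 1 RPKM, so a point need not lie at the centre of its bar.

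MRPL33, the counterpart of bacterial ribosomal protein L33, had the highest ratio of the family. It was at 105 RPKM in the RHCG library and 42.4 RPKM in the mock library, which is 2.48-fold higher, with a log2 ratio of 1.29 [1.14, 1.49]. About 21.1% of its exonic bases overlap exons of another gene, BABAM2, which was at 22.9 RPKM in the RHCG library and 16.0 RPKM in the mock library. Its part in the result was not tested. The genes beside it on chromosome 2 also had ratios above 0, among them GPN1 at 0.65, SLC4A1AP at 0.44 and FOSL2 at 0.45.

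Below MRPL33 in the large subunit came 4 genes that did not reach 2-fold. MRPL36, the counterpart of bacterial L36, was at 16.2 RPKM in the RHCG library and 9.15 RPKM in the mock library, a log2 ratio of 0.76 [0.48, 1.17]. MRPL46, a protein without a bacterial counterpart, was at 22.1 RPKM in the RHCG library and 14.4 RPKM in the mock library, a log2 ratio of 0.58 [0.40, 0.84]. All 4 intervals lay above 0. MRPL35 was at 15.9 RPKM in the RHCG library and 10.4 RPKM in the mock library, a log2 ratio of 0.56. MRPL47, the counterpart of bacterial L29 at the tunnel exit, was at 73.4 RPKM in the RHCG library and 51.01 RPKM in the mock library, a log2 ratio of 0.52.

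MRPL23, the counterpart of bacterial L23 beside the tunnel exit, had the lowest ratio of the family. It was at 25.9 RPKM in the RHCG library and 86.0 RPKM in the mock library, which is 3.32-fold lower, with a log2 ratio of −1.69 [−1.91, −1.56]. Genes beside it on chromosome 11 were also lower. CTSD, a lysosomal protease, was at 156 RPKM in the RHCG library and 306 RPKM in the mock library, and IGF2, a growth factor, at 3.13 RPKM in the RHCG library and 6.45 RPKM in the mock library. MRPL23 and the antisense gene MRPL23-AS1 share 2.86% of MRPL23's exonic bases. The strand setting of the counting is not stated, so whether their reads there were told apart is not known.

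The other low genes of the large subunit did not reach 2-fold. MRPL14, the counterpart of bacterial L14 at the face between the subunits, was at 36.4 RPKM in the RHCG library and 71.1 RPKM in the mock library, a log2 ratio of −0.95 [−1.10, −0.84]. MRPL17, another protein near the tunnel exit, was at 16.999 RPKM in the RHCG library and 30.3 RPKM in the mock library, a log2 ratio of −0.80. Both intervals lay below 0. MRPL30 was at 2.45 RPKM in the RHCG library and 4.48 RPKM in the mock library, a log2 ratio of −0.67 [−1.27, −0.46], and was the least abundant tested member in the RHCG library. MRPL18, a protein of the central protuberance, was at 46.4 RPKM in the RHCG library and 65.0 RPKM in the mock library, a log2 ratio of −0.48.

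By the mean of both libraries, MRPL12, MRPL21 and MRPL38 were the most abundant large subunit genes, and all were within 1.5-fold. MRPL33 in the RHCG library, and MRPL23 and MRPL51 in the mock library, were above MRPL38. MRPL12, a protein of the stalk that contacts translation factors, was at 141 RPKM in the RHCG library and 129 RPKM in the mock library, and 68.2% of its exonic bases overlap exons of another gene. MRPL21 was at 123 RPKM in the RHCG library and 96.7 RPKM in the mock library. MRPL38 was at 95.3 RPKM in the RHCG library and 83.2 RPKM in the mock library, with 41.1% of its exonic bases in exons of other genes.

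MRPS17, the counterpart of bacterial S17, was by far the most abundant member. It was at 528 RPKM in the RHCG library and 314 RPKM in the mock library, a log2 ratio of 0.75 [0.71, 0.79], and ranked 47 in the RHCG library and 126 in the mock library among 11433 protein-coding genes tested. About 27.003% of its exonic bases overlap exons of other genes, among them NIPSNAP2, which was at 149 RPKM in the RHCG library and 141 RPKM in the mock library. On chromosome 7 it lies in a stretch of abundant genes. EGFR, the epidermal growth factor receptor, was at 907 RPKM in the RHCG library and 543 RPKM in the mock library, a log2 ratio of 0.74. Between EGFR and MRPS17, LANCL2, VOPP1 and ZNF713 had ratios below 0. SUMF2 was at 822 RPKM in the RHCG library and 731 RPKM in the mock library, and CCT6A at 675 RPKM in the RHCG library and 672 RPKM in the mock library.

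**Figure D3:**
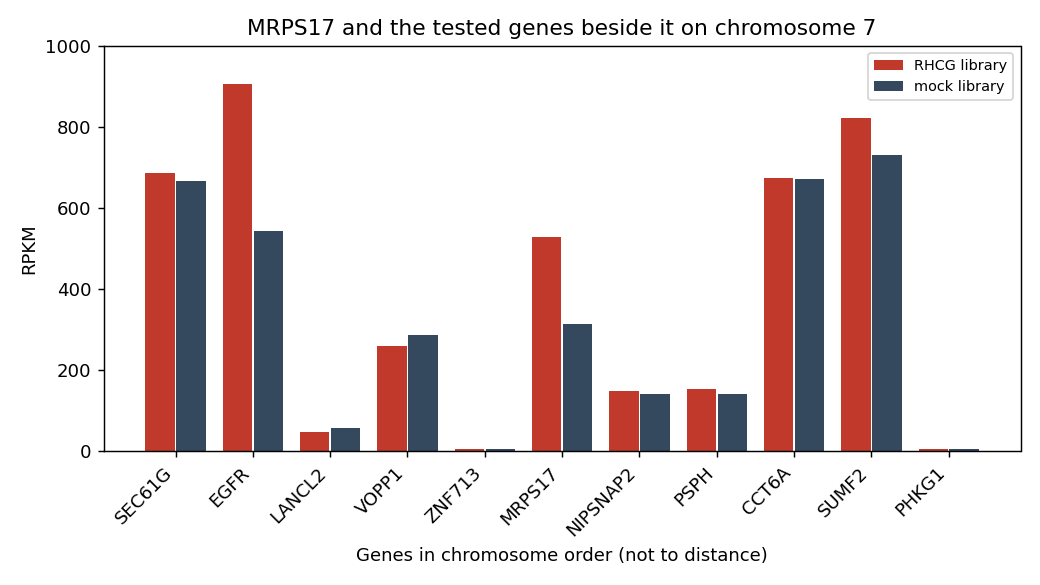
Level (RPKM) of MRPS17 and of the 5 tested protein-coding genes on each side of it on chromosome 7, in gene order and not to distance, as bars for the RHCG library and the mock library. EGFR (907 RPKM in the RHCG library, 543 RPKM in the mock library) and MRPS17 (528 RPKM in the RHCG library, 314 RPKM in the mock library) were higher in the RHCG library, while the genes between them were not.

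Small subunit genes above MRPS17 by ratio were MRPS33 and MRPS35, both without a bacterial counterpart. MRPS33 was at 18.7 RPKM in the RHCG library and 9.88 RPKM in the mock library, a log2 ratio of 0.86 [0.63, 1.22]. MRPS35 was at 41.2 RPKM in the RHCG library and 23.3 RPKM in the mock library, a log2 ratio of 0.80 [0.70, 0.95]. Neither reached 2-fold on this scale. MRPS31 was at 7.27 RPKM in the RHCG library and 5.20 RPKM in the mock library, a log2 ratio of 0.42, and MRPS9, a protein of the head, at 16.3 RPKM in the RHCG library and 11.99 RPKM in the mock library, a log2 ratio of 0.41.

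No small subunit gene was past 1.5-fold lower. MRPS11, the counterpart of bacterial S11 on the platform, was lowest, at 16.6 RPKM in the RHCG library and 24.5 RPKM in the mock library, a log2 ratio of −0.54 [−0.70, −0.43]. MRPS25 followed, at 7.36 RPKM in the RHCG library and 9.44 RPKM in the mock library, with a log2 ratio of −0.32. MRPS22, mutated in a mitochondrial disease, was at 17.7 RPKM in the RHCG library and 21.4 RPKM in the mock library, a log2 ratio of −0.26. Abundant MRPS15 was at 157 RPKM in the RHCG library and 186 RPKM in the mock library, a log2 ratio of −0.25. MRPS28 was at 27.8 RPKM in the RHCG library and 32.8 RPKM in the mock library, a log2 ratio of −0.23. MRPS34, among the most abundant of the subunit, was at 96.3 RPKM in the RHCG library and 107 RPKM in the mock library, a log2 ratio of −0.15.

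Members were also counted by evolutionary class. In the large subunit, 6 of 29 tested counterparts of bacterial proteins (20.7%) were past 1.5-fold, near the 22.8% of all genes tested, and 0 of 18 mitochondria-specific genes. MRPL46, one of those 18, lay at the limit and was past it, at 0.61, with 0.1 RPKM added in place of 1 RPKM. So was MRPL35, one of the 29 bacterial counterparts, which went from 0.56 to 0.60 with that change. In the small subunit, 1 of 16 bacterial counterparts (6.25%) was past 1.5-fold, MRPS17, and 2 of 12 mitochondria-specific genes (16.7%), MRPS33 and MRPS35. The differences between the classes were not tested. MRPS18A and MRPS18B, paralogues of the bacterial S18 counterpart MRPS18C, were counted as mitochondria-specific, as their structural names place them. The medians of the classes were close, −0.045 for 45 bacterial counterparts and −0.0053 for 30 mitochondria-specific genes.

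Groups by place in the ribosome, drawn up after the values were seen, had medians near 0 except at the exit tunnel. The proteins of the peptidyl transferase centre (MRPL2, MRPL3, MRPL16 and MRPL27) had a median log2 ratio of 0.036 and ranged from −0.18 to 0.44. The stalk proteins (MRPL10, MRPL11 and MRPL12) had a median of 0.052 and ranged from −0.21 to 0.14. Of the 7 proteins around the peptide exit (MRPL17, MRPL22, MRPL23, MRPL24, MRPL32, MRPL45 and MRPL47) 6 had ratios below 0, with a median of −0.29. They summed to 233 RPKM in the RHCG library and 309 RPKM in the mock library. Most of that difference lay in MRPL23, at 25.9 RPKM in the RHCG library and 86.0 RPKM in the mock library. Over the whole family, 45 of 75 members had ratios below 0. The median ratio of the nearest genes on the chromosome, described below, was also taken away. The 7 exit proteins, in the order named, were then at −0.10, 0.074, −1.05, −0.32, −0.48, −0.079 and 0.38. Whether the exit group differs from the others was not tested. Among 6 small subunit head proteins the median was −0.051, and among 9 proteins of the body and platform it was −0.045. The 3 MRPS18 paralogues ranged from −0.12 to 0.027.

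Ratios of members went partly with those of the genes around them on the chromosome. Across the 75 members, the ratio correlated with the median ratio of the 51 nearest protein-coding genes with a Pearson r of 0.58 and a Spearman rho of 0.43, a description across genes that share the same 2 libraries. The neighbour medians ran from −0.69 to 0.52. They were −0.69 around MRPL17, −0.64 around MRPL23, 0.38 around MRPL33, 0.40 around MRPL36 and 0.52 around MRPS33. With the neighbour median taken away, MRPL23 stayed past 2-fold at −1.05, and MRPL33 was at 0.92. Around MRPL14 the neighbour median was −0.062, and around MRPS17 it was 0.08.

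**Figure D4:**
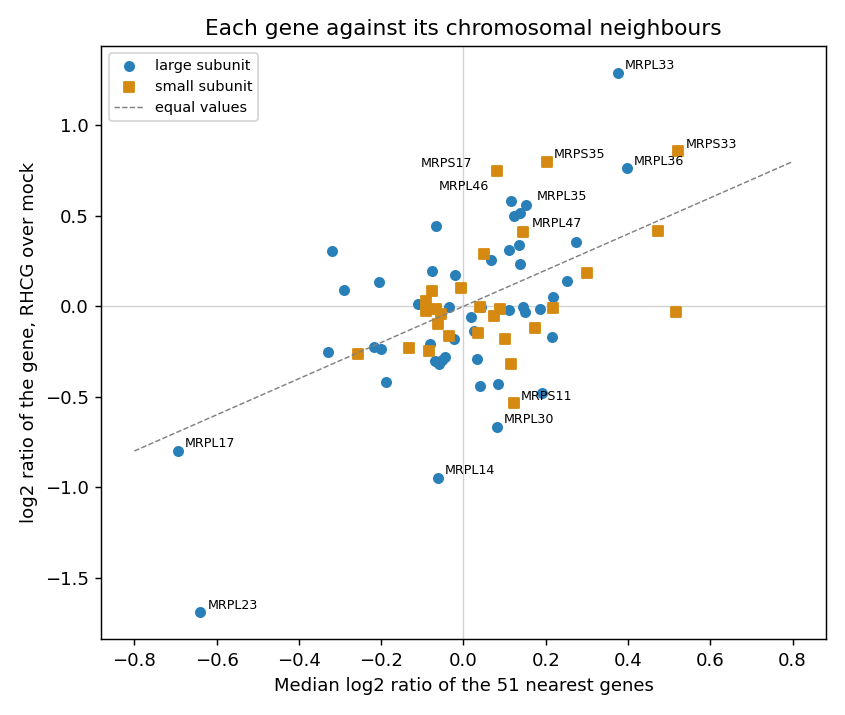
Log2 ratio of each of the 75 genes (vertical) against the median log2 ratio of its 51 nearest protein-coding genes (horizontal), by subunit, with a dashed line of equal values. MRPL23 and MRPL17 lie at the left, where neighbours were lower in the RHCG library, and MRPS33, MRPL36 and MRPL33 at the right.

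By chromosome, all 7 members on chromosome 1 and all 4 on chromosome 19 had ratios below 0, and all 3 on chromosome 12 had ratios above 0. Some of these ratios were close to 0, such as −0.0017 for MRPL55 on chromosome 1. Over the protein-coding genes of a chromosome that averaged 3 RPKM or more the median was 0.0067 on chromosome 1, −0.18 on chromosome 19 and −0.22 on chromosome 12, below 0 where its members were above. The 8 members on chromosome 2 ran from −0.67 to 1.29, and the median of that chromosome was 0.30. The ratio did not follow level, transcript length or base composition closely. Across the 75 members Pearson's r was 0.065 with log2 mean level, −0.059 with transcript length and −0.29 with GC content.

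Some members share a promoter region with a gene on the opposite strand. Only the 69 members and the other protein-coding genes with promoter sequence at hand were searched. Start sites of another gene, facing away, lay within 1000 bases for 18 of these members. This gave 16 pairs with both genes tested, 10 with ratios of the same sign and 6 of opposite sign. MRPL46 and MRPS11 are such a pair, 320 bases apart, with log2 ratios of 0.58 and −0.54. MRPL18 lies 210 bases from TCP1, a subunit of a cytosolic chaperonin, which was at 42.9 RPKM in the RHCG library and 89.7 RPKM in the mock library. MRPL30 lies 126 bases from MITD1, which was at 7.99 RPKM in the RHCG library and 4.997 RPKM in the mock library. These pairs were named after their values were seen.

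Of the other proteins and factors of mitochondrial translation none passed 2-fold with 1 RPKM added, against 6.04% of all genes tested. The 2 lists, of 6 ribosomal proteins and 14 translation factors, are too short to read that difference as a result. Past 1.5-fold were 1 of the 6 (16.7%) and 4 of the 14 (28.6%), against 22.8% of all genes tested. The list of mitochondrial ribosomal proteins with other symbols held 6 genes, with a median log2 ratio of −0.25. It included OXA1L, an inner membrane insertase rather than a ribosomal protein, at a log2 ratio of −0.28. No median was taken without OXA1L. DAP3, a GTP-binding protein of the small subunit, was highest, at 83.1 RPKM in the RHCG library and 52.7 RPKM in the mock library, and CHCHD1 lowest, at 36.6 RPKM in the RHCG library and 49.1 RPKM in the mock library. Among 14 translation factors the median was 0.11. PDF, the peptide deformylase, was at 9.17 RPKM in the RHCG library and 4.27 RPKM in the mock library, a log2 ratio of 0.95 once 1 RPKM is added to each, and TSFM, an elongation factor, at 11.1 RPKM in the RHCG library and 17.6 RPKM in the mock library.

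Among 28 assembly factors of the mitochondrial ribosome none passed 2-fold, against 6.04% of all genes tested, and their median was 0.073. MRM2, an rRNA methyltransferase, was at 29.1 RPKM in the RHCG library and 52.8 RPKM in the mock library, and MTERF3 at 15.6 RPKM in the RHCG library and 8.66 RPKM in the mock library. Of 21 tested genes of mitochondrial transcription and RNA handling 1 passed 2-fold, PNPT1 (4.76%, against 6.04% of all genes tested), and the median was 0.030. PNPT1, a polynucleotide phosphorylase, was at 11.6 RPKM in the RHCG library and 4.64 RPKM in the mock library. None of 11 tested genes listed as regulators of mitochondrial biogenesis passed 2-fold, against 6.04% of all genes tested, and their median was 0.17. The list included LONP1 and CLPP, which are mitochondrial proteases. LONP1 was highest, at 115 RPKM in the RHCG library and 73.5 RPKM in the mock library, and GABPB1 came next, at a log2 ratio of 0.59. PPARGC1B, a transcriptional coactivator, was listed at 0 in the RHCG library and at 1.47 RPKM in the mock library.

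Nuclear genes of the respiratory chain and ATP synthase lay lower than the mitochondrial ribosomal proteins, with a median log2 ratio of −0.23 over 79 genes, 20 above 0 and 59 below. NDUFB6 and NDUFA2, subunits of complex I, were past 2-fold lower, which is 2.53% of the list, against 3.3% of all genes tested. NDUFB6 was at 13.1 RPKM in the RHCG library and 30.1 RPKM in the mock library, and NDUFA2 at 33.4 RPKM in the RHCG library and 71.7 RPKM in the mock library. For 83 cytosolic ribosomal protein genes the median was −0.32, 17 above 0 and 66 below, with 5 past 2-fold lower (6.02%). These medians describe 2 libraries, and the differences between the lists were not tested.

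**Figure D5:**
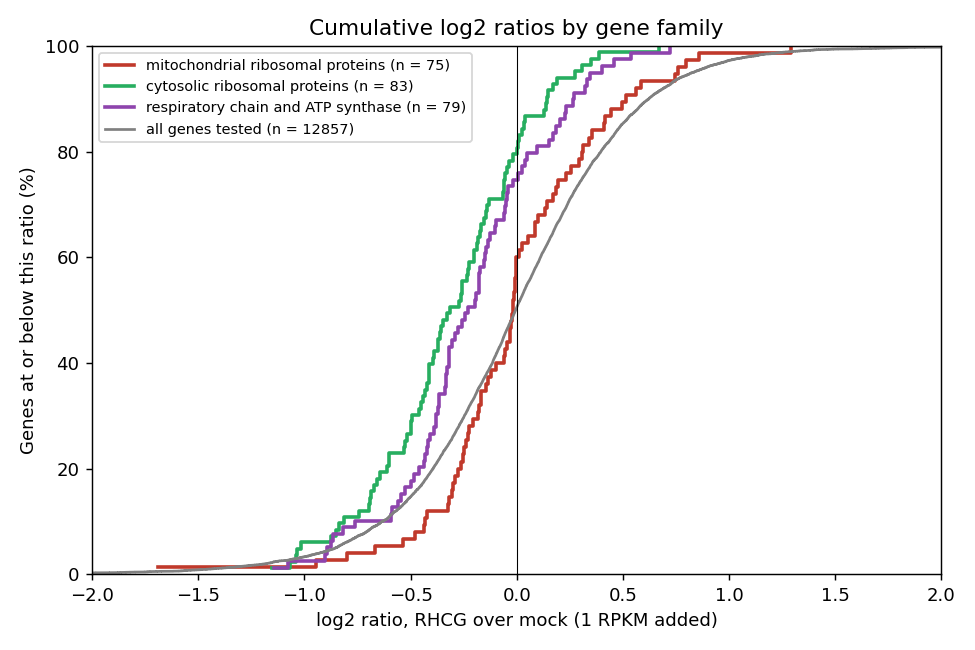
Percent of genes (vertical) at or below each log2 ratio of RHCG over mock (horizontal) for the mitochondrial ribosomal proteins, the cytosolic ribosomal proteins, the respiratory chain and ATP synthase, and all 12857 genes tested. The curve of the mitochondrial ribosomal proteins crosses the middle near 0 (median −0.017) and is steeper than that of all genes, while those of the respiratory chain (−0.23) and the cytosolic ribosomal proteins (−0.32) lie to its left.

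Pseudogenes could take reads from 41 members that have a pseudogene in the tables. Of 104 such pseudogenes 2 were listed above 0, MRPL45P2 at 2.68 RPKM in the RHCG library and 3.07 RPKM in the mock library, and MRPS31P5 at 1.05 RPKM in the RHCG library and at 0 in the mock library. MRPL45 and MRPS31 values are uncertain to that extent. Exonic bases of 40 of the 75 tested members overlap exons of another gene, at 50% or more in MRPL12 alone.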

How the data were processed

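Per the labels, rRNA-depleted total RNA was made into Ion Total RNA-Seq libraries, 1 per group. The submitters' processing notes name hg19 and bedtools 2.25.0, and for the aligner and the read counter nothing is given in the sources used here. Each library has a table, in which the authors deposited log2 values of RPKM, with no counts. The 40448 rows, 112 with a copy suffix, were unlogged and summed to 40392 Entrez genes. Genes listed at 0, which may have had 1 RPKM or less or no estimate, were set to 1 RPKM. The ratio was log2((RHCG + 1)/(mock + 1)), with a pseudocount of 1 RPKM, for the 12857 genes averaging 1 RPKM or more, and was called at 2-fold. With 1 library per group no test was run. No mitochondrially encoded gene was analysed here.

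Depth came from small RNA genes, whose values fell in piles at whole multiples of 1 constant per library. The constant was searched within a limited range, so a multiple or fraction of it outside that range was not considered. Within 0.02 reads of a whole number lay 37.5% (66 of 176) in the RHCG library and 27.1% (51 of 188) in the mock library, so counts were not recovered. Approximate reads used GENCODE 29 median transcript lengths, and reads are not independent molecules. Neighbours were genes averaging 3 RPKM or more.

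Members and lists were chosen with earlier results of these data known. Named genes were, in each subunit, the 5 highest and 5 lowest by ratio and the 3 most abundant, every member past 2-fold or not tested, and, of the lists of mitochondrial gene expression, up to 4 members past 2-fold or otherwise the highest and lowest. Genes beside members, promoter pairs, place groups and printed sequences were chosen after values were seen. So was a shorter NRF1 motif, first adopted because of a limit on the length of typed sequences. It was then kept only beside the original, whose counts are given first. The ratio code was tested on simulated data. Tools were scipy 1.17.1, pandas 2.3.3, numpy 2.4.6 and matplotlib 3.10.9 under Python 3.11.15.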

Additional observations from a re-analysis of the deposited data

How the results depend on the processing

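The count of 2 members past 2-fold was 1 with the median of 51 neighbouring genes removed, 9 at a 1.5-fold limit, and 0 among the 35 members with no exonic base in another gene's exons, an alternative added after the data were seen that leaves out both MRPL33 and MRPL23 by construction. A pseudocount of 0.1 RPKM, no filter, a mean of at least 5 RPKM (72 members), median-of-ratios and trimmed mean scaling, genes listed at 0 set to 0 RPKM and 1 row per gene each gave 2. Scaling shifted ratios by 0.0071 and 0.0091. Removing the neighbour median put the large subunit at −0.08 and the small subunit at −0.05. Of 202 values of 24 named members 15 moved beyond their counting interval, all under that removal, and 23 members kept their sign, MRPS31 being the exception (−0.06 to 0.48). MRPL17 ran from −0.83 to −0.10. The NRF1 motif share was 11.6% with all 10 letters and 18.8% without the last, beside 8.74% and 11.2% of all promoters. No paired analysis was possible because each group has 1 library, and for the same reason no library could be left out.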
